A study of Homo sapiens with 5 samples.

Results

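The probes for hsa-miR-142-3p, hsa-miR-142-5p and hsa-miR-223 were described in 5 human hematopoietic cell lines. They were taken by name and are 3 of the 654 human probes of the nCounter miRNA panel, from 2 microRNA genes. The lines were Meg-01, a megakaryoblastic line from chronic myeloid leukemia, Jurkat, a T-cell leukemia line, Raji, a B-cell line from Burkitt lymphoma, U937, a histiocytic lymphoma line with monocytic features, and K562, an erythroleukemic line from chronic myeloid leukemia. All are transformed lines, no treatment of the cells is named, and each line is 1 sample of Trizol-extracted total RNA with an input of 100 ng. The raw human counts of a lane summed to 130048 in Jurkat, 66892 in Raji, 109731 in Meg-01, 105224 in K562 and 94027 in U937. With 1 sample per line there was no replicate check and no test between lines, and the 95% intervals cover counting error only.

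MicroRNAs are short RNAs that guide Argonaute proteins to messenger RNAs, mainly by pairing through their seed, and lower the translation and stability of these messengers. A hairpin precursor can yield a mature product from either of its arms, named 5p and 3p, and the balance of the arms can differ between cell types. miR-142 is known as a microRNA of nearly all blood cell lineages, while miR-223 is known for high levels in granulocytes, monocytes and platelets and for its part in granulocyte differentiation.

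The mature sequences of the RNAs named by the probes are shown 5′ to 3′, with the seed (bases 2 to 8) in capitals. All 3 probes were matched to a RefSeq sequence by name, with no probe sequence used. hsa-miR-223, which the panel lists without an arm, was taken as the 3p arm by its older name.
hsa-miR-142-3p: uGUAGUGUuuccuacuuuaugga
hsa-miR-142-5p: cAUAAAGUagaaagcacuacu
hsa-miR-223-3p: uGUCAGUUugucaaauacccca
The 3 seeds differ from each other. Among 2370 human mature sequences, the seeds of miR-142-3p and miR-223-3p occurred in no other name, while that of miR-142-5p was shared with 1 other, hsa-miR-5590-3p, which has no probe on the panel. Over the whole length, the nearest other mature sequence differed by at least 7 edits from miR-142-3p and by at least 8 from miR-142-5p and miR-223-3p. GC content was 34.8%, 33.3% and 40.9% in the order shown.

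The hairpins are shown because the arm ratio of miR-142 compares products of 1 precursor, with capitals marking the mature 5p and 3p arms. They come from RefSeq with coordinates on GRCh38.p14.
MIR142: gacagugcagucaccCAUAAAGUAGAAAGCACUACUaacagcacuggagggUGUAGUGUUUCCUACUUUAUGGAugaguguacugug
MIR223: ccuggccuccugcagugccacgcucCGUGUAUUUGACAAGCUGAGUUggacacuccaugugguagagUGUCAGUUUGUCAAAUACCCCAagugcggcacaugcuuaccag
MIR142 lies at chr17:58331232-58331318 on the minus strand, inside the spans of the long noncoding RNA genes MIR142HG and TSPOAP1-AS1. In this hairpin of 87 bases the 5p arm covers bases 16 to 36 and the 3p arm bases 52 to 74. MIR223 lies at chrX:66018870-66018979 on the plus strand, inside the span of the long noncoding RNA gene MIR223HG, and is 110 bases long.

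hsa-miR-142-3p was at a high level in all 5 lines, and highest in Jurkat. Its raw count was 32907 in Jurkat (95% Poisson interval 32552 to 33264), 8151 in Raji (7975 to 8330), 18315 in Meg-01 (18051 to 18582), 7436 in K562 (7268 to 7607) and 11271 in U937 (11064 to 11481). For comparison between lines, each lane was scaled by the geometric mean of its counts for the 100 human probes that were highest on average, and the background, set 2 SD above the mean of the 8 negative controls, was subtracted. The resulting normalized count was 26474 in Jurkat, 12796 in Raji, 13548 in Meg-01, 9052 in K562 and 11724 in U937. Jurkat thus stood apart above the other lines, and the highest level was 2.92-fold the lowest (2.83 to 3.03). This size depended on the scaling beyond the counting interval, and was 4.44-fold without normalization. In bulk RNA, fewer cells with a miRNA and less of it in each cell cannot be told apart.

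In the order of the lines, neighbors were compared before subtraction and under 5 other scalings. Jurkat exceeded Meg-01 by 1.95-fold (1.92 to 1.99), and U937 exceeded K562 by 1.29-fold (1.26 to 1.33), and no other scaling turned either order, with 0.60 to 1.32 and 0.31 to 1.03 on the log2 scale. Meg-01 exceeded Raji by 1.06-fold (1.03 to 1.08), and the other scalings gave 0.17 to 1.17 on the log2 scale. Raji and U937 were not separable, since 3 of the 5 scalings turned their order. The count in Jurkat was 1.54 times that of the highest positive control probe of its lane, so it lay outside the range that the controls cover. In Meg-01 this quotient was 0.835, and it was lower still in Raji, U937 and K562.

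hsa-miR-142-5p, the product of the other arm, was present at a lower count in each line. Its raw count was 984 in Jurkat (923 to 1047), 357 in Raji (321 to 396), 450 in Meg-01 (409 to 494), 220 in K562 (192 to 251) and 297 in U937 (264 to 333). After scaling and subtraction it was 764 in Jurkat, 491 in Raji, 302 in Meg-01, 227 in K562 and 273 in U937. Both arms were highest in Jurkat and lowest in K562. The 5p arm differed in its second place, which was taken by Raji. Jurkat over K562 was 3.37-fold (2.70 to 4.24). This size also depended on the scaling, with 5.12-fold without normalization and 5.02-fold with positive controls.

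The highest line of the 5p arm did not depend on the scaling. Jurkat exceeded Raji by 1.41-fold (1.24 to 1.59), and no other scaling turned this order, although its size ran from 0.50 to 1.47 on the log2 scale. Raji and Meg-01 were not separable, since 2 of 5 scalings turned them. Meg-01 over U937 was 1.08-fold (0.928 to 1.25) and U937 over K562 was 1.15-fold (0.964 to 1.38), so neither pair differed beyond counting error with this scaling. Under the other scalings Meg-01 over U937 ran from -0.31 to 0.60 and U937 over K562 from 0.14 to 0.87 on the log2 scale, so the first order turned and the second did not. Over 10 settings of scaling and background, Jurkat was the highest line for both arms in 10, and K562 was the lowest in 9. The exceptions were Raji for the 3p arm and Meg-01 for the 5p arm, each lowest with scaling to the housekeeping probes.

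hsa-miR-223 had a different pattern, high in Meg-01, U937 and K562, lower in Jurkat and lowest in Raji. The raw count was 732 in Jurkat (680 to 787), 62 in Raji (47.5 to 79.5), 3269 in Meg-01 (3158 to 3383), 1684 in K562 (1605 to 1766) and 2682 in U937 (2581 to 2785). The count in Raji was near background, since the raw threshold of that lane was 45.9 and its highest negative control had 47 counts. Counts in the other 4 lines were far above their thresholds.

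The ratio of U937 over Raji depended on the subtraction of background. It was 28.6-fold before subtraction (22.2 to 37.4) and 108-fold after it (50.1 to 1088), so the size of the difference was poorly determined while its direction was the same in 10 of 10 settings. K562 exceeded Jurkat by 3.49-fold (3.20 to 3.82) and Jurkat exceeded Raji by 6.02-fold (4.64 to 7.94) before subtraction. No other scaling turned these orders, with 1.20 to 1.93 for K562 over Jurkat and 2.60 to 3.57 for Jurkat over Raji on the log2 scale. After subtraction Jurkat over Raji was 4.46 on that scale, so its size depended on both choices. Neighbors among the 3 high lines were not separable, although U937 lay above K562 in 10 of 10 settings. U937 over Meg-01 was turned by 2 of 5 scalings, and Meg-01 over K562 by 1.

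**Figure D1:**
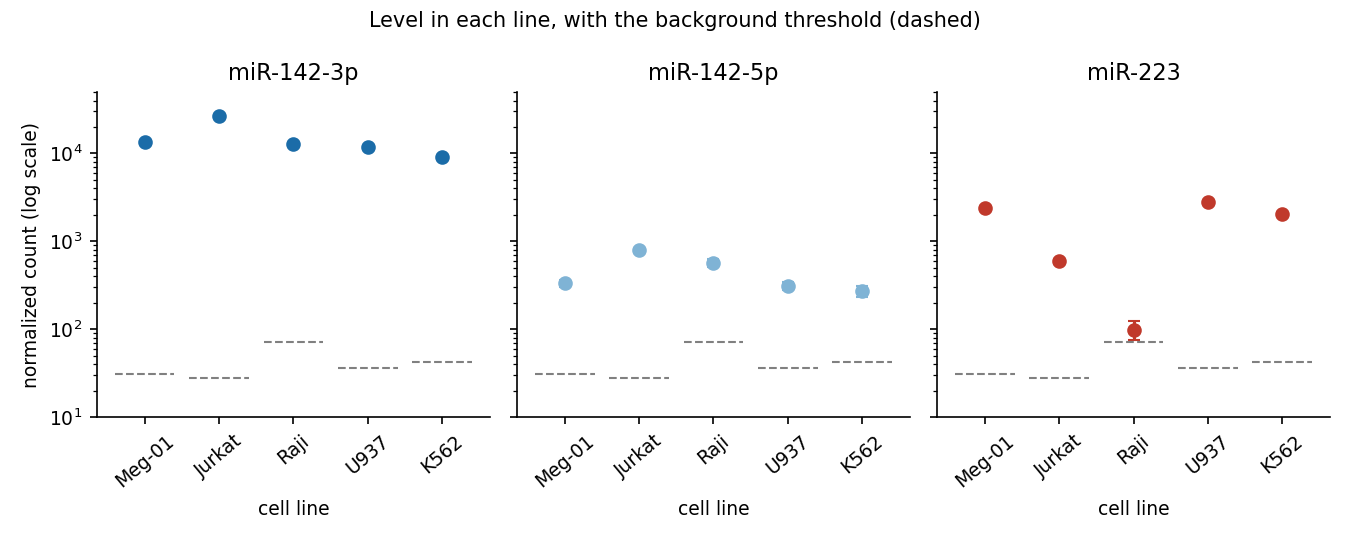
Normalized counts before subtraction (log scale) of the 3 probes in each line, with 95% Poisson intervals as bars and the background threshold of the line dashed. Both miR-142 arms are highest in Jurkat, and miR-223 in Raji lies just above the threshold.

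**Figure D2:**
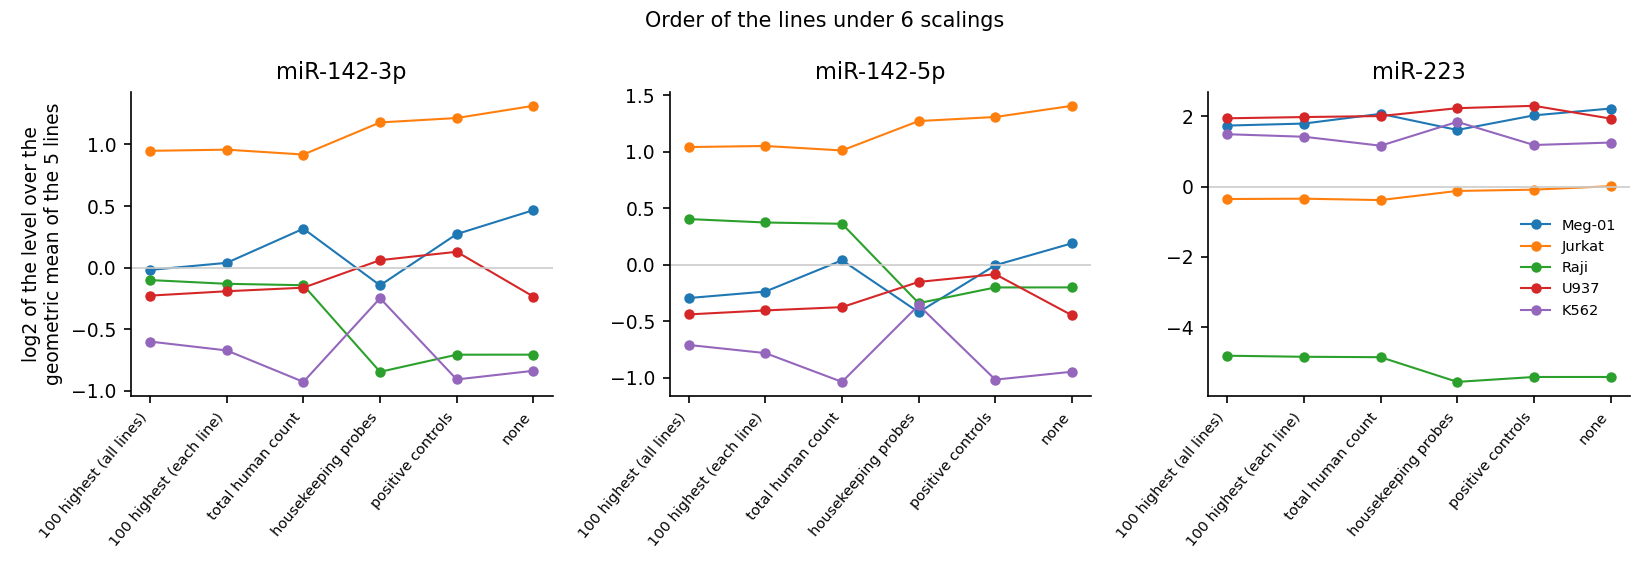
Level of each probe in a line over the geometric mean of the 5 lines (log2) under 6 scalings, 1 point per line and scaling after subtraction of background. Jurkat is the top line for both miR-142 arms and Raji the bottom line for miR-223 under each scaling, while U937 and Meg-01 change places for miR-223.

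The share of the human counts does not depend on scaling between lines. hsa-miR-142-3p made up 16.7% of the raw human counts in Meg-01 (exact binomial interval 16.5 to 16.9), 25.3% in Jurkat (25.1 to 25.5), 12.2% in Raji (11.9 to 12.4), 12.0% in U937 (11.8 to 12.2) and 7.07% in K562 (6.91 to 7.22). It ranked 1 in Meg-01 and Jurkat, 2 in Raji and U937 and 4 in K562. Its share in Jurkat was thus well above that in any other line, and its share in K562 was the smallest. Both held for shares of subtracted values, but each line then lay above its counting interval. Jurkat had 29.3%, Meg-01 20.1%, Raji 16.8%, U937 14.5% and K562 8.29%. Raji and U937, nearly alike in raw shares, thus differed after subtraction. Without the 13 probes for tRNA and other RNA fragments, K562 had a raw share of 8.52% and rank 3. The next probe below miR-142-3p was miR-92a in Meg-01, with 15661 counts, and in Jurkat, with 14415.

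The quotient of miR-142-3p over miR-92a within a lane is free of scaling and was formed after the values were seen. It was 2.28 in Jurkat (2.24 to 2.33), 0.955 in Raji (0.927 to 0.985), 1.17 in Meg-01 (1.14 to 1.19), 0.328 in K562 (0.320 to 0.337) and 0.745 in U937 (0.727 to 0.763). The intervals of the 5 lines did not overlap, with Jurkat at the top and K562 at the bottom. miR-92a itself varied, with 11.1% of the human counts in Jurkat, 12.8% in Raji, 14.3% in Meg-01, 21.5% in K562 and 16.1% in U937. The quotient therefore holds the change of both probes, and its spread is not that of miR-142-3p alone. Since probes differ in efficiency, a value of 1 does not mean equal numbers of molecules.

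hsa-miR-142-5p made up 0.757% in Jurkat, 0.534% in Raji, 0.410% in Meg-01, 0.209% in K562 and 0.316% in U937. Its rank was 21, 21, 33, 39 and 33 in the same order. The share of hsa-miR-223 was 0.563% in Jurkat, 0.0927% in Raji (0.0711 to 0.119), 2.98% in Meg-01, 1.60% in K562 and 2.85% in U937. As a share of subtracted values, that of Raji was 0.0335%. Within the counting interval of its own count, the rank of miR-223 in Raji ran from 63 to 104 around its value of 81. The probe ranked 23 in Jurkat, and 6, 9 and 9 in Meg-01, U937 and K562. Together the 3 probes held 26.6% of the human counts in Jurkat, 12.8% in Raji, 20.1% in Meg-01, 8.88% in K562 and 15.2% in U937.

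**Figure D3:**
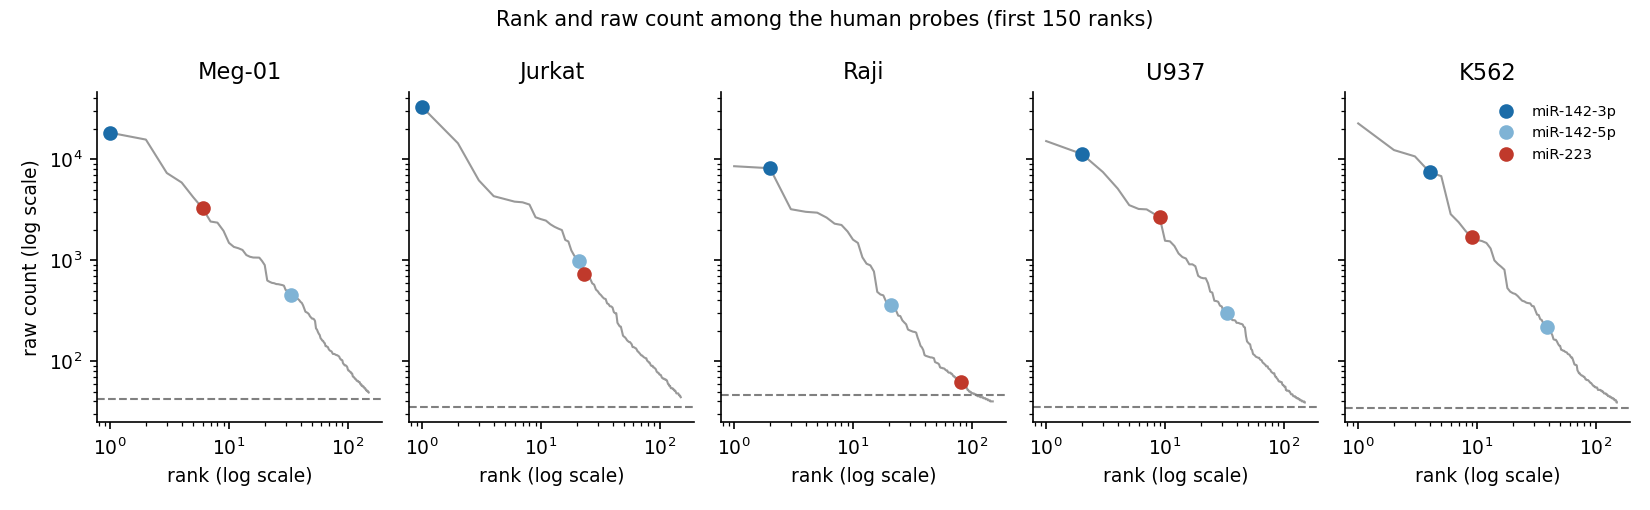
Raw count (log scale) against rank (log scale) of the human probes in each line, with the 3 probes marked and the raw background threshold dashed. miR-142-3p sits at rank 1 to 4 in every line, and miR-223 falls from rank 6 in Meg-01 to rank 81 in Raji.

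Within a lane, miR-223 was set against miR-142-3p. The quotient of their counts was 0.0222 in Jurkat (0.0206 to 0.0239), 0.00761 in Raji (0.00583 to 0.00976), 0.178 in Meg-01 (0.172 to 0.185), 0.226 in K562 (0.215 to 0.239) and 0.238 in U937 (0.228 to 0.248). The intervals of U937 and K562 overlapped, Meg-01 was lower, and both lymphocytic lines were lower again. Against miR-92a the quotient of miR-223 was 0.0508 in Jurkat (0.0471 to 0.0547), 0.00727 in Raji (0.00557 to 0.00932), 0.209 in Meg-01 (0.201 to 0.217), 0.0744 in K562 (0.0708 to 0.0782) and 0.177 in U937 (0.170 to 0.185). The order of the 3 high lines thus depended on the denominator, with Meg-01 highest against miR-92a, while Jurkat and Raji were the lowest lines against both. All of these quotients use raw counts, and that of Raji rests on a count near background.

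The arm ratio of miR-142, the raw count of the 3p probe over that of the 5p probe, was 33.4 in Jurkat (conditional binomial interval 31.4 to 35.7), 22.8 in Raji (20.5 to 25.5), 40.7 in Meg-01 (37.1 to 44.8), 33.8 in K562 (29.6 to 38.8) and 37.9 in U937 (33.8 to 42.7). The 3p arm gave the larger count in all 5 lines, and Raji had the lowest ratio. As a share of both arms, the 5p arm was 4.20% in Raji and between 2.40% and 2.90% in the other 4 lines. The 2 probes may differ in efficiency, so the ratio is one of counts, and its change between lines is what can be read. In Jurkat the 3p count was 1.54 times that of the highest positive control, outside the range of the controls. Arm ratios that involve Jurkat carry this limit.

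Of the 10 pairs of lines, 6 had a quotient of arm ratios whose interval left out 1. Raji was in 4 of them. Meg-01 over Raji was 1.78 (1.54 to 2.06), Jurkat over Raji was 1.46 (1.29 to 1.66), Raji over U937 was 0.602 (0.513 to 0.705) and Raji over K562 was 0.676 (0.567 to 0.803). The other pairs were Meg-01 over Jurkat with 1.22 (1.09 to 1.37) and Meg-01 over K562 with 1.20 (1.02 to 1.42), the latter falling to 1.12 under another treatment of background. No adjustment for the number of pairs was made.

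Background adds relatively more to the smaller 5p count, so the ratio was also formed after subtraction. With the background of mean plus 2 SD subtracted from both arms it was 34.6 in Jurkat, 26.1 in Raji, 44.8 in Meg-01, 39.9 in K562 and 42.9 in U937, and Raji was again lowest. Over the 5 background treatments, Jurkat over Raji ran from 1.32 to 1.46. At the pooled ratio of the other 4 lines, the 3p count of Raji would go with 227 counts of the 5p probe, and 357 were found. The same calculation for Meg-01, with Raji among the other lines, gave 569, where 450 were found.

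**Figure D4:**
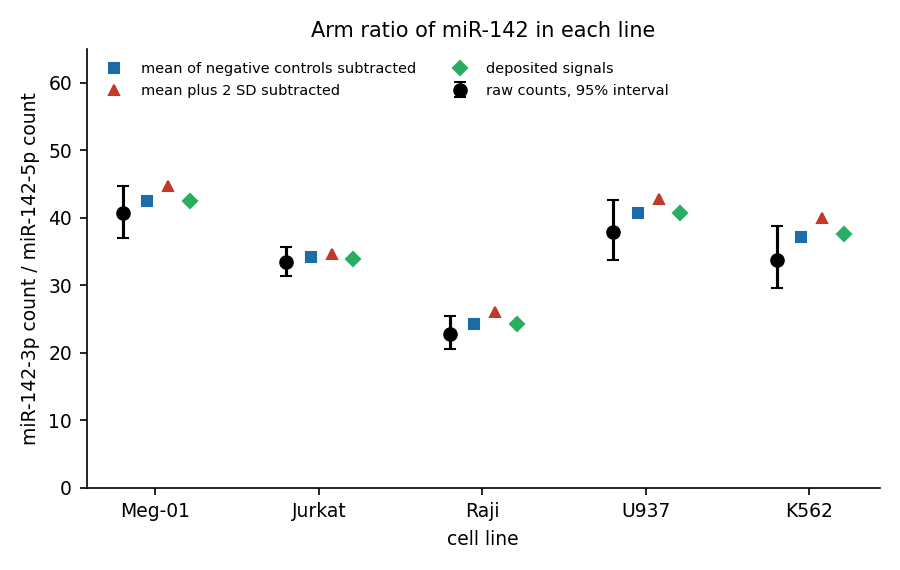
Ratio of the miR-142-3p count to the miR-142-5p count in each line, from raw counts with 95% intervals as bars and after 3 treatments of background. Raji is lowest under each treatment, at 22.8 from raw counts.

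The panel holds 60 hairpins with a probe named for each arm. With both arms required above background in all 5 lines, miR-142 alone passed, so 0 other hairpins could be compared by this rule. After the data were seen, the threshold was lowered to the mean of the negative controls, which 8 other hairpins passed. Their span of the arm ratio ran from 1.55 for miR-423 to 4.73 for miR-590, with a median of 2.34, and the span of 1.78 of miR-142 took place 4 of 9 from the smallest in raw counts. After subtraction of the mean of the negative controls its span was 1.75, the smallest of the 9, against 3.69 to 139 for the others. The lowest count of these other hairpins had a median of 23.5, near background, so their spans hold much counting error and subtraction widens them.

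Against the whole panel, 3 of the 3 probes were above background in all 5 lines, as were 88 of 654 human probes (13.5%). A highest line over 4-fold above the lowest was found for 1 of the 3, miR-223. Such a span was common by this rule, with 251 of the 308 human probes above background in at least 1 line (81.5%). For the miR-142 arms the call depended on the scaling. Without normalization both arms passed as well, with 4.44 for miR-142-3p and 5.12 for miR-142-5p, against 241 probes of the panel. With positive controls both passed too, with 4.35 and 5.02. Among the 88 probes above background in every line the median span was 4.41, and 31.8% of them had a smaller span than miR-142-3p, 36.4% than miR-142-5p and 96.6% than miR-223. Subtraction leaves small values just above the threshold and widens spans of low probes. A line at or below its background was entered at the threshold, before and after subtraction. After subtraction, a line just above background can thus hold a smaller value than a line entered at the threshold. In Raji miR-222 had 0.214, where the scaled threshold was 72.4. The count of 251 therefore rests partly on this rule. Of the 88 probes that needed no such entry, 50 had a span above 4-fold after subtraction. Before subtraction, a form chosen after the data were seen, 63 of 308 (20.5%) had a span above 4-fold, and miR-223 took place 6 from the largest. Among these 308 probes miR-142-5p took place 89 and miR-142-3p place 90. Their spans of 2.95 and 2.91 lay above the median of 2.57.

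A level over 2-fold higher in the lowest of Meg-01, U937 and K562 than in the highest of Jurkat and Raji was found for 1 of the 3 probes, again miR-223, and for 7 of 308 (2.27%). Its quotient was 3.59, and the largest was 3.78 for miR-1246. With 39 raw counts in Raji, miR-1246 was below the raw threshold of 45.9 and was entered at the threshold. The order of these quotients can therefore not be read. Before subtraction 4 of 308 probes (1.3%) passed. These were miR-223 with 3.49, miR-1246 with 3.38, miR-23a with 2.78 and miR-24 with 2.29. This grouping of the lines was formed with the miR-223 values known, so the place of miR-223 is a description.

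The likeness of patterns was measured over the 5 lines as the root mean square difference of centered log2 levels, among 156 other probes above background in at least 3 lines. Closest to miR-142-3p were the probe shared by miR-181b and miR-181d (0.28), miR-301a (0.28) and miR-142-5p (0.29), against a median of 0.80. Closest to miR-142-5p were miR-484 (0.28), miR-142-3p (0.29) and miR-450a (0.29), against a median of 0.73. The arms of miR-142 were thus among the 3 nearest of each other. Several of the other probes were near or below background, and those below it were entered at the threshold. In Raji the raw counts were 46 for the miR-181b and miR-181d probe, 45 for miR-301a and 16 for miR-450a, against a raw threshold of 45.9. In K562 they were 35 for the miR-181b and miR-181d probe and 29 for miR-450a, against 34.6.

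The nearest probes to miR-223 were miR-24 (0.90), miR-1246 (0.998) and miR-23a (1.02), against a median of 2.12. miR-24 had raw counts of 130 in Jurkat, 27 in Raji, 1063 in Meg-01, 196 in K562 and 663 in U937, and miR-23a had 90, 25, 597, 165 and 701 in the same order. Like miR-223, both were lowest in Jurkat and Raji, but in K562 they lay near their mean over the 5 lines, where miR-223 lay above its own. In Raji all 3 of these probes were below the raw threshold of 45.9, with 27 counts for miR-24, 39 for miR-1246 and 25 for miR-23a, and were entered at the threshold. Raji gave 55.7% of the squared difference to miR-24, 51.8% of that to miR-1246 and 62.1% of that to miR-23a, so these distances rest largely on a value at background. The difference between miR-223 and miR-142-3p was 2.04.

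The labeled cell types were set against 10 listed blood-cell miRNAs. Of these, 8 were above background in Jurkat, 5 in Raji, 9 in Meg-01, 6 in K562 and 7 in U937, against 35.0%, 17.0%, 27.2%, 27.5% and 28.3% of all human probes in the same order. The erythroid miR-144 and miR-451 were above background in Meg-01 and K562 and in no other line. The list as a whole summed to 3.21% of the human counts in Jurkat, 1.31% in Raji, 5.82% in Meg-01, 2.13% in K562 and 1.40% in U937, less than miR-142-3p alone in each line.

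In normalized and subtracted counts, miR-150, miR-181a and miR-155 were highest in a line of the cell type that the list set for them. miR-144, miR-451, miR-126, miR-10a and miR-146a were not. No cell type was set for the other listed miRNAs, miR-221, which was highest in Meg-01 with 390, and miR-222, which was highest in U937 with 65.9. The lymphoid miR-181a was 2026 in Jurkat, 198 in Raji and 1761 in Meg-01, but it ranked 7 in Meg-01 and 10 in Jurkat, with raw counts of 2417 and 2551, so its order in these lines also rests on the scaling. The lymphoid miR-150, with 801 in Jurkat, had 21 raw counts in Raji, below the raw threshold of 45.9. miR-155, known from B-cell activation, was 329 in Raji and 228 in U937, although its raw counts of 254 and 253 were alike, so this order rests on the scaling.

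The erythroid miR-144 was 696 in Meg-01 and 222 in K562, and miR-451 was 64.4 in Meg-01 and 29.8 in K562, so both were lower in the erythroleukemic line. The megakaryocytic miR-126 was 1417 in Meg-01 and 1770 in K562, an order that the raw counts of 1954 and 1482 turn, and miR-10a was 36.3 in Meg-01 and 250 in K562. miR-146a, known from monocytic and granulocytic cells, was 253 in Raji and 117 in U937.

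As a contrast, 14 miRNAs known from other tissues, such as liver, muscle, brain and epithelia, were listed. Their median raw count over the lines was 30, and 7 of the 14 were above background in no line, as were 346 of all 654 human probes (52.9%), a like share. By line, 7 of the 14 were above background in Jurkat, 4 in U937 and 3 each in Raji, Meg-01 and K562. Of the 7 in Jurkat, all but miR-9 and miR-206 had 36 to 48 raw counts, near the raw threshold of 35.0 in that lane. The muscle miR-206 was above background in all 5 lines, with 81 to 94 raw counts. The neural miR-9 was above it in 4 lines, with 573 counts in Jurkat. In Raji miR-206 had 81 counts and miR-223 had 62. Since probes differ in efficiency, these counts do not rank the levels of the miRNAs.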

How the data were processed

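Total RNA of 5 cell lines, 1 sample each, was measured with the nCounter human miRNA assay. The authors deposited raw counts of each probe, which were used here, and signals of the human probes, which equal the count minus 1 constant per line and were used as an alternative. Counts of 654 human probes were scaled by the geometric mean of the 100 probes with the highest mean count over the lines, and the mean plus 2 SD (sample SD) of 8 negative controls was subtracted. The 3 described probes were among these 100, so they took part in setting the scaling. Summed human counts ranged from 66892 to 130048. Intervals at 95% are exact Poisson for counts, exact binomial for shares and conditional binomial for quotients of 2 counts. For quotients of arm ratios the intervals were combined on the log scale and are approximate, and the span of a level takes its interval from both Poisson intervals. Neighbors were called not separable where the interval covered 1 or another scaling turned their order.

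Named miRNAs were the 3 probes, the 3 most alike to each, hairpins with the smallest and largest span of the arm ratio, neighbors in rank, and the blood-cell and other-tissue lists. The miR-92a quotients, the probes passing before subtraction and the lower threshold for hairpins were chosen after the data were seen. The members and lists were chosen with earlier results of these data known. Alternatives were 5 scalings, 3 other treatments of background, the deposited signals, shares of subtracted values, shares and ranks without 13 probes for tRNA and other RNA fragments, and another measure of likeness. The calculations were tested on simulated data. A first simulation with changes in a single direction did not meet the criterion for the scaling factors. The simulation was then changed to have changes in both directions, and neither the criterion nor the calculations were changed. The scaling was thus not shown to hold for lines that differ mostly in a single direction. Sequences and gene positions are from RefSeq, GRCh38.p14. Python 3.11.15, numpy 2.4.6, scipy 1.17.1, pandas 2.3.3 and matplotlib 3.10.9 were used.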

Additional observations from a re-analysis of the deposited data

How the results depend on the processing

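The arm ratio of miR-142 in a line moved beyond its counting interval in 7 of 20 comparisons, always upward. With the background of mean plus 2 SD subtracted it was 44.8 in Meg-01, 26.1 in Raji, 42.9 in U937 and 39.9 in K562, and with the highest negative control subtracted 45.0 in Meg-01, 26.1 in Raji and 39.8 in K562. Its span did not move.

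The span of miR-142-3p over the lines, 2.92, became 4.44 without normalization, 3.09 with the 100 highest chosen in each line, 4.35 with positive controls, 4.07 with housekeeping probes, 3.59 with the total human count and 4.44 with the deposited signals. That of miR-142-5p, 3.37, became 5.12 without normalization, 5.02 with positive controls and 4.91 with the deposited signals. That of miR-223, 108, became 45.2 with the mean of the negative controls subtracted, 28.6 without subtraction, and 113 to 222 under the 5 other scalings, within its wide interval. The small value in Raji sets this range.

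Of 108 comparisons of neighbors on the log2 scale, 11 turned an order whose interval left out 0. Meg-01 over U937 for miR-142-5p, whose interval covered 0, also turned, to -0.31 with housekeeping probes. Raji over U937 for miR-142-3p became -0.47 without normalization, -0.83 with positive controls, -0.90 with housekeeping probes and -0.47 with the deposited signals. Raji over Meg-01 for miR-142-5p became -0.33 without normalization, -0.14 with positive controls and -0.36 with the deposited signals. For miR-223, U937 over Meg-01 became -0.29 without normalization, -0.063 with the total human count and -0.29 with the deposited signals, and Meg-01 over K562 became -0.24 with housekeeping probes. The cause was not tested.

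With the mean of the negative controls as threshold, 283 probes were above background in all 5 lines, and of the 572 above it in at least 1 line, in place of 308, 424 (74.1%) had a span above 4-fold and 15 (2.62%) passed the contrast of Meg-01, U937 and K562 over Jurkat and Raji. Before subtraction, a setting added after the data were seen, the last 2 were 63 and 4 of 308. In each of 9 comparisons, at least 2 of the 3 most alike miRNAs were the same. Shares moved beyond counting error in 21 of 30 comparisons and ranks in 6 of 15. Counting error limits miR-223 in Raji most.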

Other observations

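The constant by which the deposited signals differ from the raw counts was 16.25 in Jurkat, 23.12 in Raji, 20.37 in Meg-01, 22.75 in K562 and 20.87 in U937. The mean of the negative controls was 22.75 in Jurkat, the value of the constant of K562, and 20.25 in K562. In the deposited signals, miR-223 was 38.9 in Raji and miR-142-5p was 197 in K562.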
